A study of Mus musculus with 8 samples.

Results

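The genes described here encode the Slit ligands (Slit1, Slit2 and Slit3), the Robo receptors (Robo1, Robo2, Robo3 and Robo4) and 2 of the Srgap proteins that act inside the cell downstream of Robo, Srgap1 and Srgap2. They were chosen by gene symbol, with earlier results of these libraries known, and no threshold on a measured value was applied. All 9 symbols were found once each among the 55536 genes of the deposited table. Because the mutant-control differences were known when the genes were picked, those differences are given as a description of where each gene stood, and nothing else is supported with them.

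The libraries came from mouse embryos at E14.5, before the palatal shelves, the paired outgrowths that form the roof of the mouth, had lifted above the tongue. RNA was taken from the posterior part of both shelves of an embryo, epithelium and mesenchyme together. The 4 control libraries carried Yapfl/fl;Tazfl/fl, floxed alleles of the Hippo pathway co-activators YAP and TAZ, with no Cre named in their genotype. The 4 mutant libraries carried the same floxed alleles and Col2Cre, a Cre under control of Col2a1 regulatory sequence, which is active in cartilage and related skeletal cells, so the tissue can hold cells that never had Cre. The labels do not say that each library is a separate litter or animal, so the p-values below measure only the spread among these libraries, which may be technical.

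Slits are large secreted proteins that bind the outer part of Robo receptors such as Robo1 and Robo2, a contact helped by heparan sulphate on the cell surface. The inner part of Robo has no enzyme activity and recruits adaptors, among them the Srgap proteins, which switch off small GTPases that control actin. The pathway is best known for repelling axons at the nervous system midline and also steers cell migration and adhesion in other tissues, with Robo4 typical of blood vessel endothelium and Robo3 of crossing axons in the hindbrain and spinal cord.

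Depth was similar in all libraries, 29025089 to 32437977 reads recovered from the table. Yap1 ran from 9095 to 10086 normalised counts (reads divided by a size factor per library) in controls and from 8221 to 8745 in mutants. Wwtr1, which encodes TAZ, ran from 4449 to 5305 and from 3650 to 4574. The log2 differences were -0.18 (SE 0.052) for Yap1 and -0.29 (SE 0.0773) for Wwtr1, both with a limma adjusted p of 0.751. All 10 markers of palatal mesenchyme were present in every library, with the lowest, Msx1, at 34.0 to 131.6. Mutant replicate 2 stood apart, with the highest epithelial and neuronal and the lowest endothelial, osteoblast and chondrocyte marker levels of the 8 libraries.

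Robo1 was the most abundant of the 9 genes in this tissue once gene length was taken into account. Per kb of the longest annotated coding transcript, Robo1 had a level of 1883 ± 157 normalised counts (SD over the 8 libraries, both genotypes) and Robo2 867 ± 157. Slit3 followed with 428 ± 80.5 per kb, close to Srgap2 with 396 ± 32.2 per kb, and these neighbours in the order overlapped in range. Below them stood Srgap1 at 261 ± 42.0, Slit2 at 176 ± 16 and Robo4 at 123 ± 10.3 per kb. Slit1 at 7.97 ± 4.44 and Robo3 at 4.31 ± 2.75 per kb were near the bottom and also overlapped each other. All other neighbours in this order were separate in every library. With all annotated exons joined as the length, Slit2 dropped below Robo4, at 68.8 against 115 per kb, and the rest of the order was the same.

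**Figure D1:**
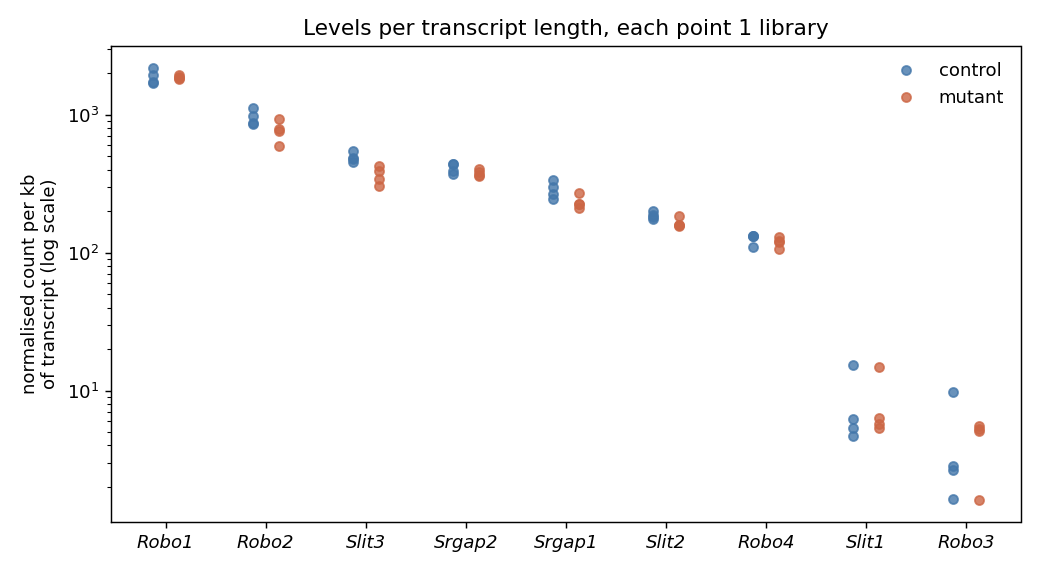
Normalised count per kb of transcript on a log scale for the 9 genes, ordered by mean, with each point 1 library (control blue, mutant orange). Robo1 lies highest, at 1712 to 2205 per kb, and Slit1 and Robo3 lie lowest, at 1.61 to 15.4 per kb.

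Slit3 was the member that differed most between the genotypes in relation to its spread. Slit3 (ENSMUSG00000056427, chromosome 11 from 35121224 to 35708507, plus strand), a secreted ligand, had 2553, 2375, 2866 and 2496 normalised counts in control replicates 1 to 4 and 2209, 1588, 2042 and 1792 in mutant replicates 1 to 4. No mutant value reached the control values, and mutant replicate 2 was lowest. The control mean of 2573 ± 209 stood against a mutant mean of 1908 ± 273 (each SD, n = 4). That is a log2 difference of -0.44 (SE 0.100) on the scale of log2(normalised count + 1), a change of -26.2%. Slit3 missed the threshold in limma (adjusted p = 0.654, adjusted over all genes tested) and in edgeR on the recovered reads (adjusted p = 0.695). DESeq2 on the same reads did call it (adjusted p = 0.0474, log2 difference -0.43). Over the 19 alternatives the adjusted p ran from 0.0474 to 0.976, so the call rests on the choice of tool.

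The other abundant ligand showed a smaller difference. Slit2 (ENSMUSG00000031558, chromosome 5 from 47983138 to 48307733, plus strand) had 2000, 1744, 1818 and 1874 normalised counts in controls and 1829, 1578, 1566 and 1589 in mutants. Mutant replicate 1 lay among the controls and the other 3 mutants below them all. Slit2 thus differed by -0.18 on the log2 scale (SE 0.0744, limma adjusted p = 0.754). Within each library the ratio of Slit3 to Slit2 counts was 1.28, 1.36, 1.58 and 1.33 in controls and 1.21, 1.01, 1.30 and 1.13 in mutants, with mutant replicate 3 inside the control range. Slit1 (ENSMUSG00000025020, chromosome 19 from 41600257 to 41743665, minus strand), the ligand best known from the nervous system, was the least abundant ligand. It had 87.3, 35.1, 26.7 and 30.4 normalised counts in controls and 30.1, 84.2, 35.7 and 32.4 in mutants, so that 1 library of each genotype was high. Its log2 difference of 0.06 (SE 0.476, limma adjusted p = 0.988) turned to -0.28 when mutant replicate 2 was left out and grew to 0.43 when control replicate 1 was.

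**Figure D2:**
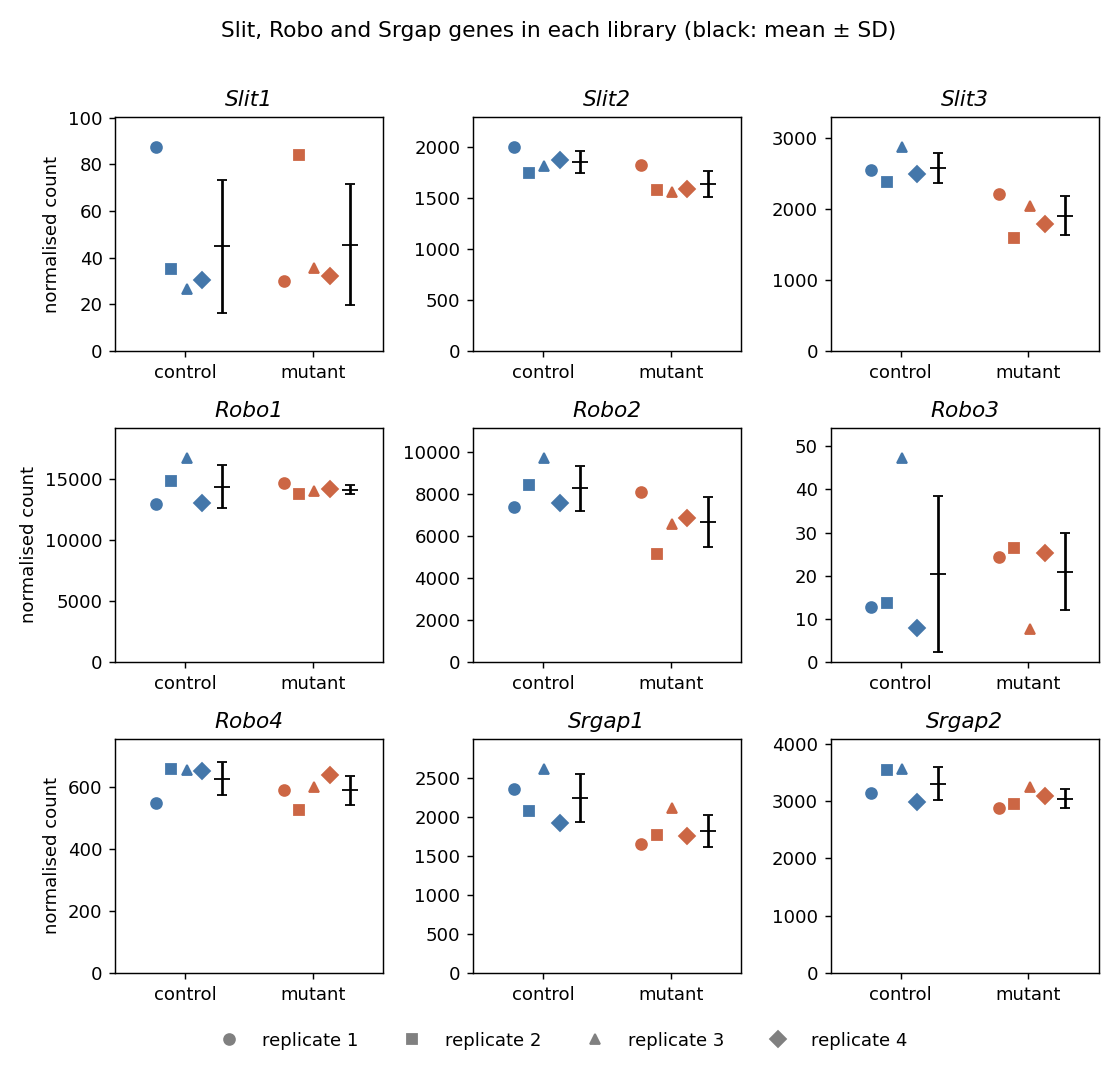
Normalised counts of each gene in each library, on axes that start at 0, with controls in blue, mutants in orange, a symbol for each replicate number and black bars for the mean and SD. The 4 mutant points of Slit3, from 1588 to 2209, all lie below its control points, while those of the other 8 genes overlap the controls.

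The Slit2 and Slit3 genes share a feature that the choice of genes did not use, a microRNA precursor in an intron of each. Mir218-1 (chromosome 5 from 48223942 to 48224051) lies in intron 14 of the 35 introns of the longest coding transcript of Slit2. Mir218-2 (chromosome 11 from 35616816 to 35616925) lies in intron 14 of 35 of Slit3. Both precursors give the same 5p product and different 3p products, shown here from RefSeq (GRCm38.p6), 5′ to 3′, with the seed, bases 2 to 8, in capitals, to let the shared and the distinct seeds be compared.
mmu-miR-218-5p: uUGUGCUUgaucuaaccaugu
mmu-miR-218-1-3p: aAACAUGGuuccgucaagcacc
mmu-miR-218-2-3p: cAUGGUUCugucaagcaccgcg

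Both precursors were listed at 0 in all 8 libraries, which allows up to 3 reads in each (counting error only). Counts of this kind do not measure mature microRNAs. The 7 letters that pair with the 5p seed, AAGCACA, were then searched on the sense strand of the longest annotated 3′ untranslated region of each gene (GENCODE M21). They were found in 5 of the 9 genes, Slit2, Robo1, Robo2, Robo3 and Srgap2, and not in these windows of the other 4. Among all tested genes with such a region 15.9% held them, and 33% of those with a region of at least 2000 bases. The matches in the 2 abundant receptors are shown because these receptors are compared below, with the match in capitals; a match is a description of the letters only.
Robo1: ttttttggttttaaAAGCACAa
Robo2, first: ttttatttggtgatAAGCACAa
Robo2, second: gtcacggcagacccAAGCACAg

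The abundant receptors differed from each other in their pattern over the libraries. Robo2 (ENSMUSG00000052516, chromosome 16 from 73892306 to 74411825, minus strand) had 7374, 8389, 9672 and 7546 normalised counts in controls and 8082, 5151, 6562 and 6830 in mutants. Mutant replicate 1 lay within the control range and the other 3 mutants below it. The log2 difference was -0.32 (SE 0.123, limma adjusted p = 0.754), and -0.20 without mutant replicate 2. Robo1 (ENSMUSG00000022883, chromosome 16 from 72663149 to 73046095, plus strand) had 12951, 14799, 16674 and 13013 in controls and 14653, 13731, 13978 and 14137 in mutants. All 4 mutants lay inside the control range, and their SD of 390 was smaller than the 1765 of the controls. The log2 difference of Robo1 was -0.02 (SE 0.0770, limma adjusted p = 0.98), and it turned to 0.06 without control replicate 3. The 2 genes lie 846 kb apart on chromosome 16, on opposite strands.

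The Robo1 to Robo2 ratio within each library, computed after their values were seen and given with no test, was nearly constant in controls. It was 1.76, 1.76, 1.72 and 1.72 in control replicates 1 to 4 and 1.81, 2.67, 2.13 and 2.07 in mutant replicates 1 to 4. Every mutant ratio was above every control ratio, although mutant replicate 1 lay only just above. The means were 1.74 ± 0.021 (SD, n = 4) and 2.17 ± 0.358 (SD, n = 4). The share of other gene pairs whose ratios do not overlap was not computed, and neither receptor passed limma alone, so the ratios stand as a description of these 8 libraries.

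The remaining receptors were less abundant. Robo4 (ENSMUSG00000032125, chromosome 9 from 37401897 to 37415115, plus strand), typical of endothelium, had 547.3, 657, 654.6 and 651.1 normalised counts in controls and 589.3, 526.2, 601.1 and 639.2 in mutants. The groups overlapped, with control replicate 1 low among the controls, and the log2 difference was -0.09 (SE 0.106, limma adjusted p = 0.893), -0.155 without control replicate 1 and -0.038 without mutant replicate 2. Robo3 (ENSMUSG00000032128, chromosome 9 from 37415669 to 37433246, minus strand) ends 553 bp from the end of Robo4, the 3′ ends facing each other on opposite strands. Whether the counting used strand is not known from the labels. Robo3 had 12.8, 13.7, 47.2 and 7.9 normalised counts in controls and 24.3, 26.5, 7.7 and 25.3 in mutants. With 8 to 46 reads per library the genotypes overlapped, and its log2 difference of 0.22 (SE 0.641, limma adjusted p = 0.969) turned to -0.10 without control replicate 4 and grew to 0.71 without control replicate 3.

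Both Srgap effectors had lower mutant means. Srgap1 (ENSMUSG00000020121, chromosome 10 from 121780991 to 122047315, minus strand) had 2351, 2079, 2606 and 1919 normalised counts in controls and 1650, 1764, 2116 and 1752 in mutants. Mutant replicate 3 lay among the controls and the other 3 mutants below them. The log2 difference was -0.29 (SE 0.104, limma adjusted p = 0.754). Srgap2 (ENSMUSG00000026425, chromosome 1 from 131285251 to 131527352, minus strand) had 3142, 3549, 3554 and 2977 in controls and 2884, 2956, 3247 and 3093 in mutants, with 2 of the mutant libraries inside the control range. For Srgap2 the mutants differed by -0.12 on the log2 scale (SE 0.0722, limma adjusted p = 0.795).

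Read over all 9 genes, 7 had lower and 2 higher mean log2 values in mutants, and the median of their log2 differences was -0.12, beside -0.00015 over the 16647 genes tested. None of the 9 was called by limma at an adjusted p of 0.05, where 0.0240% of all genes tested were called, and none by edgeR, where 0.0300% were. DESeq2 called 1 of 8 with an adjusted p, Slit3, where it called 0.187% of all genes. Without adjustment, 4 genes (Slit2, Slit3, Robo2 and Srgap1) had a limma p under 0.05, all lower in mutants, where 3.79% of all genes were lower at that level. The single gene without overlap, Slit3, stands beside 1.91% of all genes that were lower in every mutant than in every control. The genes were picked with these differences known, so nothing is read from the counts.

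Other genes of the pathway had small differences of both signs between the genotypes. The 35 listed genes outside the 9 were also chosen with earlier results of these data known, and all 35 were tested. Lower means were found for 21 and higher means for 14, where 50% of all genes tested were lower. At an adjusted p of 0.05, 0 passed limma, 0 edgeR and 0 DESeq2. None had an unadjusted limma p under 0.05 (0 genes, the smallest p was 0.0634), where 1093 of the 16647 genes tested did. Their median log2 difference was -0.03, with a range from -0.22 to 0.28. Among partners and other ligands, 4 of 7 had lower means. Cxcr4, a chemokine receptor whose signalling Slit can dampen, averaged 353 ± 52.3 normalised counts over the controls and 426 ± 32.8 over the mutants, with a log2 difference of 0.28 (SE 0.135). Unc5b, a netrin receptor of endothelium that can bind Robo4, had 2346 ± 208 and 2026 ± 322 (log2 difference -0.22, SE 0.109), and Ntn1, the attractant netrin-1, 5432 ± 1393 and 6282 ± 908 (log2 difference 0.23, SE 0.151).

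Heparan sulphate and matrix genes had lower means in 7 of 10 cases. Hs6st1, a heparan sulphate 6-O-sulphotransferase, had a log2 difference of 0.09 (SE 0.052), the proteoglycan core protein gene Sdc3 one of -0.18 (SE 0.111) and Sdc1, which encodes syndecan-1, one of 0.10 (SE 0.0687). Intracellular effectors were lower in 7 of 13 cases, with Nck2, an adaptor that links receptors to actin regulators, at 0.11 (SE 0.0644), the unconventional myosin gene Myo9b at -0.09 (SE 0.0695) and the small GTPase gene Rac1 at 0.07 (SE 0.0588). Of the 35 genes, 2 were higher in every mutant than in every control, as were 1.86% of all genes tested, and 0 were lower in every mutant. These were Nck2, with nearest libraries at 1597 and 1600 normalised counts, and Hs6st1, with nearest libraries at 5923 and 5926. Genes of Robo turnover were lower in 3 of 5 cases, with the ubiquitin ligase gene Nedd4 at -0.06 (SE 0.0607), its adaptor gene Ndfip1 at 0.05 (SE 0.0646) and Prrg4 at -0.12 (SE 0.188). The limma adjusted p of every gene in these lists was at least 0.767.

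**Figure D3:**
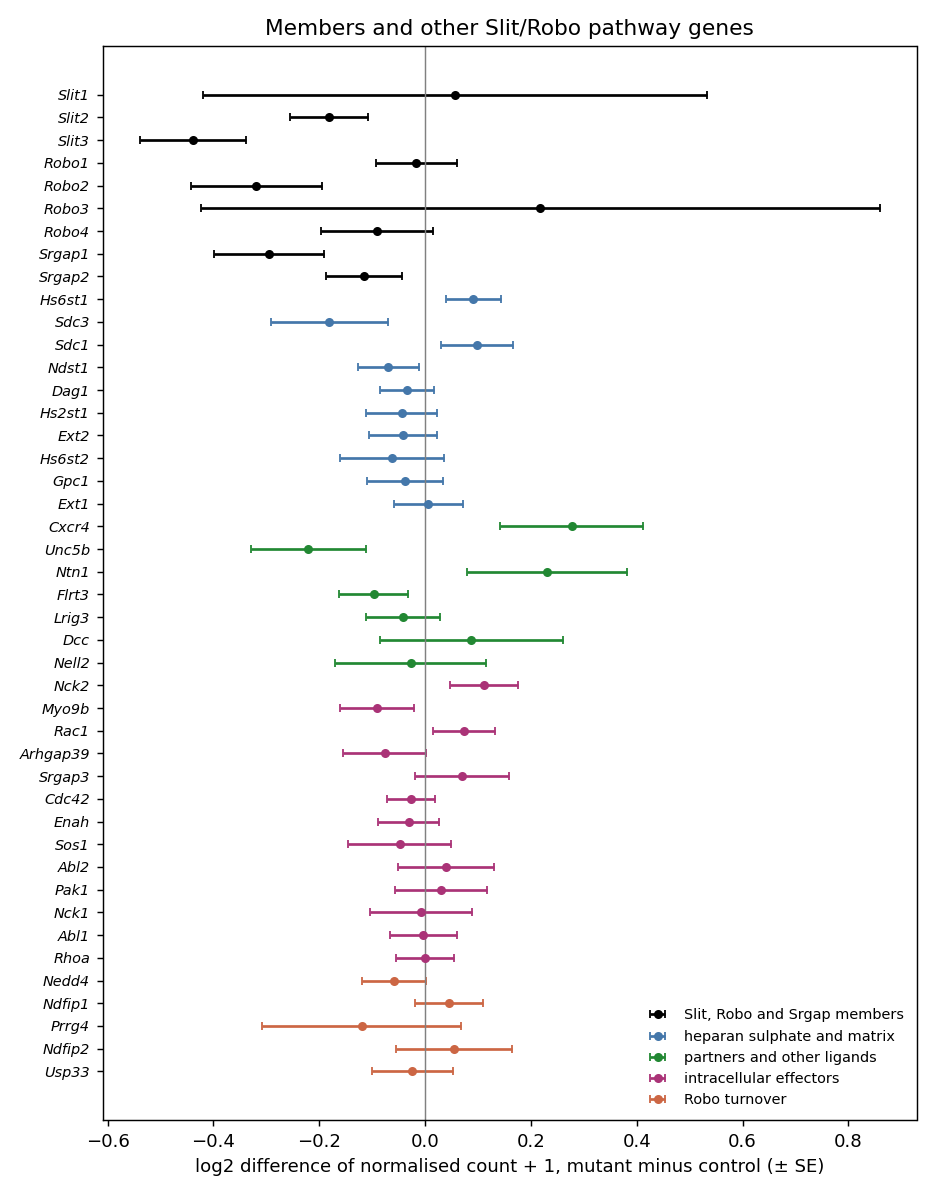
The log2 difference of normalised count + 1, mutant minus control, with its SE from limma, for the 9 genes (black) and 35 further pathway genes coloured by role. Slit3 lies farthest below 0 at -0.44, Slit1 and Robo3 have the widest errors, and the other pathway genes lie between -0.22 and 0.28.

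The dissected tissue is a mixture, and in such bulk samples fewer cells of a type and less RNA per cell cannot be told apart. Marker lists of the cell types the shelves could hold are therefore set beside the members. Beside Slit3 and Robo2, osteoblast, chondrocyte and endothelial markers also had lower mutant means, the last in 9 of 10 cases. Of 10 osteoblast markers 9 were lower in mutants and Bglap was listed at 0 in every library, and their summed normalised counts were 25742 to 49826 in controls and 8823 to 26682 in mutants. All 8 chondrocyte markers were lower, with sums of 19305 to 33099 and 9562 to 23329. Among them, Matn1 was listed at 0 in some libraries and Comp ran from only 8.8 to 35.4 normalised counts. The mean log2 level of a list weighs such low markers the same as abundant ones. Mutant replicate 2, lowest of all libraries for Slit3 and Robo2, had the lowest sum in the osteoblast and chondrocyte lists. Control replicate 1 had the highest mean log2 level in these lists, 0.623 and 1.049 relative to the control mean. Its Robo2 count of 7374 was nevertheless the lowest of the controls, and its Slit3 count of 2553 lay within the range of the other controls. Control replicate 3, the highest library for Slit3, Robo1, Robo2, Robo3, Srgap1 and, by a small margin, Srgap2, had the lowest control sum of osteoblast markers, 25742. For chondrocyte markers its place depended on the measure, since its sum of 23980 was second highest of the controls while its mean log2 level, -0.92 relative to the control mean, was their lowest. The part of these cell types in the differences was not tested.

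Robo4, the endothelial receptor, is set beside the endothelial list. Of 10 endothelial markers 9 had lower mutant means, with none at 0 and summed counts of 19652 to 20765 in controls and 14558 to 19626 in mutants. Mutant replicate 2 was lowest for both Robo4 and these markers. Control replicate 1 was the lowest control for both, by a wide margin for Robo4 and a small one for the markers. Its mean log2 endothelial level was -0.035 relative to the control mean, against 0.005 to 0.024 in the other controls. Neuronal markers, relevant to Slit1 and Robo3, split 5 lower and 5 higher, with sums of 3968 to 7300 and 4792 to 9456. Mutant replicate 2 was highest for them and high for Slit1. Control replicate 1, the highest library for Slit1, had a neuronal level of 0.126 relative to the control mean (log2), below the 0.378 and 0.61 of control replicates 2 and 4, where Slit1 was low. Control replicate 3, the highest library for Robo3, had the lowest neuronal level. All 10 epithelial markers had higher mutant means, with sums of 29151 to 41966 and 31575 to 57416. Of 8 markers of Schwann cells and glia 7 had higher mutant means, with sums of 3187, 3417, 3079 and 3515 in control replicates 1 to 4 and 6763, 4776, 4495 and 3188 in mutant replicates 1 to 4. Skeletal muscle markers were higher in 6 of 10 cases, with sums of 29666 to 37079 in controls and a wider 14409 to 55113 in mutants. Macrophage markers were higher in 6 of 8 cases, with sums of 3755 to 4249 and 3560 to 4636. Palatal mesenchyme markers split 5 higher and 5 lower, with sums of 352660 to 414257 and 244168 to 373414, lowest in mutant replicate 2. That sum, in which Col1a1 was the highest marker, ranked the 8 libraries in the same order as Robo2. The mean log2 level of the list ranked them differently. The part of these cell types in the values of the members was not tested.

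**Figure D4:**
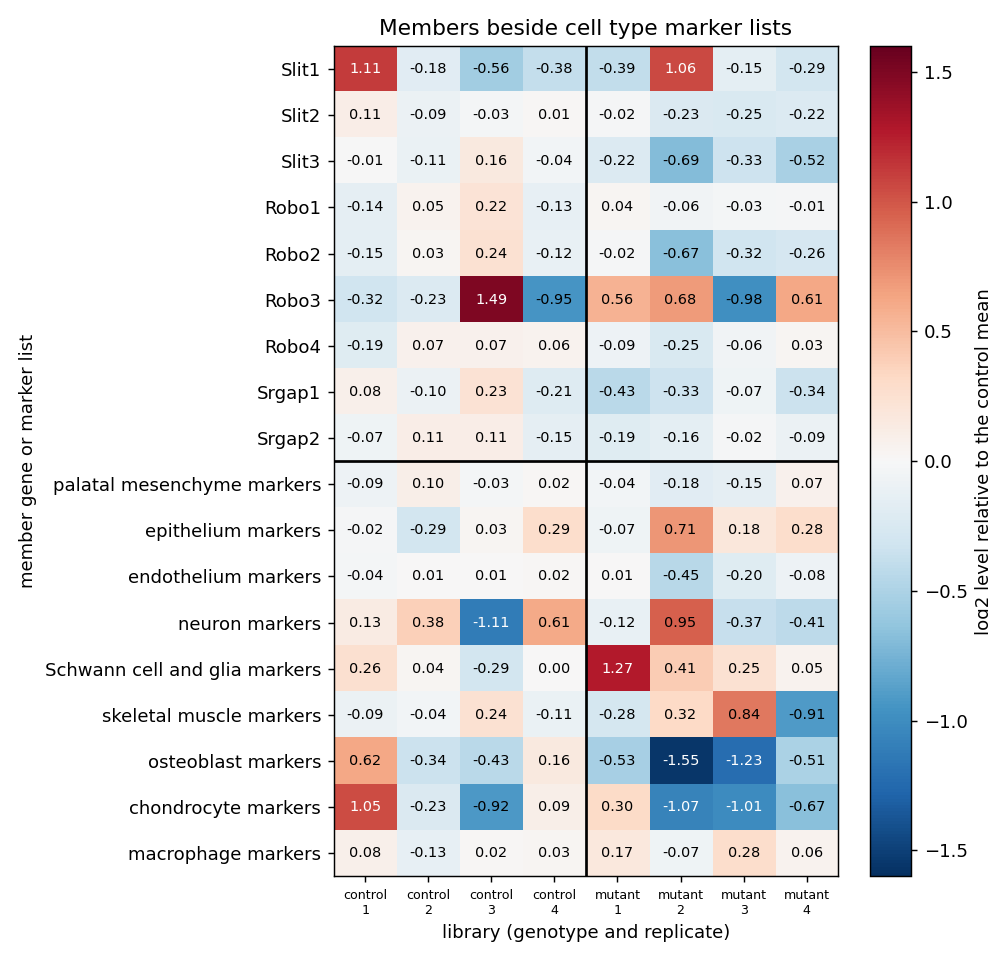
Log2 level of each of the 9 genes (above the line) and mean log2 level of each marker list (below it) in each library, relative to the mean of the 4 controls, with the value written in each cell. Mutant replicate 2 has the lowest values for Slit3 (-0.69), Robo2 (-0.67), osteoblast (-1.55) and chondrocyte (-1.07) markers.

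The genes most like 4 of the members over the 8 libraries were found by the mean absolute difference between standardised log2 values, among 12330 genes with a mean of at least 50 normalised counts; 0 would be an identical pattern. They are the nearest of many and carry no test. Nearest to Slit3 were Egfr (0.146), a growth factor receptor gene, Thbd (0.175), which encodes thrombomodulin, and Nfat5 (0.223), where the median gene was at 1.14. Nearest to Robo2 were 3 genes of matrix or its modification, Col1a1 (0.18), Lama4 (0.19) and Sulf2 (0.19), the last an enzyme that trims heparan sulphate. Col1a1 is also one of the mesenchyme markers used here, and it had its lowest count, 113410, in mutant replicate 2. Nearest to Srgap1 were Ndnf (0.202) and Wwc2 (0.274). Nearest to Robo4 was Icam2 (0.211), an adhesion molecule gene of endothelium, followed by Fam161b (0.227) and Mst1r (0.261).

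Promoter sequence was examined for the letters GGAATG on either strand, the core recognised by TEAD factors, through which YAP and TAZ act on DNA. RefSeq promoters (GRCm38.p6, 250 bases before to 50 after a start) were matched for 8 of the 9 genes by symbol, 10 promoters in all, 3 of them for Robo2; Slit1 had no entry. The letters were found in 1 of the 10, a Robo2 promoter upstream of the gene span in the table, 43 bases after the start on the other strand. Of all 32851 promoters of 300 bases 14.7% held them, and 12.5% of those of tested genes. The promoter of Slit3 had 78.3% G and C with 41 CG pairs, that of Srgap1 73.3% with 37 and that of Slit2 68% with 30, where the median of tested genes was 60.3% with 19. Robo4 had 50.3% with 2. Shown 5′ to 3′ on the gene's own strand are the promoter of Slit3, the member farthest apart between the genotypes, and the Robo2 promoter with the match in capitals; a match or its lack says nothing of binding.
Slit3, chr11:35121206-35121505, plus strand: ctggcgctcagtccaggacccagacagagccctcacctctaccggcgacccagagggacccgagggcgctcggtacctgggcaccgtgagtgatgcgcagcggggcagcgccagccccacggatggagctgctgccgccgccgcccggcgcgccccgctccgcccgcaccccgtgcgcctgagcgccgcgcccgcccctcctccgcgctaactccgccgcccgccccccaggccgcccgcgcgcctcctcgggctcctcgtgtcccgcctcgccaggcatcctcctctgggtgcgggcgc
Robo2, chr16:75092721-75093020, minus strand: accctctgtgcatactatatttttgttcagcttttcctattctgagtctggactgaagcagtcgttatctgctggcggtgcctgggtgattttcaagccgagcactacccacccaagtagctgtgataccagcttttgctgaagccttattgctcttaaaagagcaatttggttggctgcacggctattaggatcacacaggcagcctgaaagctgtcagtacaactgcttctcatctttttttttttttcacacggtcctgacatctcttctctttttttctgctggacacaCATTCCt

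The differences of the least abundant genes moved most when a library was left out. With each library left out in turn, Slit3 stayed between -0.513 and -0.355 on the log2 scale, Slit2 between -0.235 and -0.146, Robo2 between -0.418 and -0.202, Robo4 between -0.155 and -0.0377, Srgap1 between -0.369 and -0.219 and Srgap2 between -0.165 and -0.0794. Slit1 ran from -0.28 to 0.43 and Robo3 from -0.10 to 0.71.

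**Figure D5:**
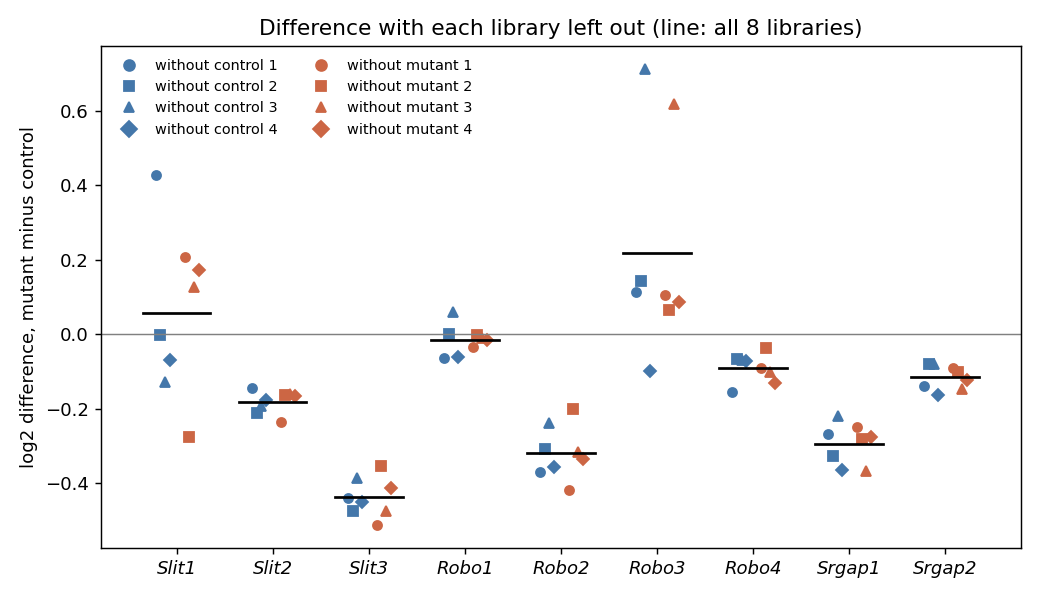
Log2 difference, mutant minus control, of each gene with 1 library left out (blue symbols without a control, orange without a mutant) and with all 8 libraries (black line). All points of Slit2, Slit3, Robo2, Robo4, Srgap1 and Srgap2 lie below 0, and those of Slit1, Robo1 and Robo3 lie on both sides.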

How the data were processed

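RNA of 4 control and 4 mutant libraries of posterior palatal shelves was sequenced. Per the submitters' processing notes, STAR 2.7.2 was used, and DESeq2 with no version given. The sources used here name no counting tool, strand setting, annotation or build. The positions in the table equalled GENCODE M21 (GRCm38) for 49995 of 52489 gene IDs (95.2%), which also gave transcript lengths, introns and untranslated regions. The deposited signal values are normalised counts, reads divided by 1 size factor per library (0.939 to 1.06) and rounded to 1 decimal, by the authors. Whole reads were recovered within 0.06 for 100% of values from 50 to 5000. The deposited log2 values, variance-stabilised by the authors, served in 1 alternative.

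Replicates were numbered in accession order, so the numbers pair nothing. limma 3.58.1 with an intensity trend (R 4.3.3) was fitted to log2(normalised count + 1) of the 16647 genes with at least 10 in at least 4 libraries, two-sided, with Benjamini-Hochberg adjustment at 0.05. The fit was also run on simulated counts drawn independently for each library, with no outlying or related libraries among them. Alternatives were other pseudocounts, filters and scalings, library weights, the first title number as a block, leaving out each library, and count tests on the recovered reads (DESeq2 1.42.0, edgeR 4.0.16). Genes named beyond the 9 were up to 3 per pathway list by smallest p and up to 3 per member by likeness (4 members, leaving out predicted and sex-linked genes); 1 of the latter is not reported here. The members and lists were chosen with earlier results of these data known; the joined-exon length and the count ratios were added after seeing the data. Pandas 2.3.3 and matplotlib 3.10.9 were used.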

Additional observations from a re-analysis of the deposited data

Results flagged for a closer look

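Among 42 groups of 4 libraries looked at (the 9 genes and 12 named pathway genes in each genotype), 6 had 1 library far from the other 3 by Dixon's ratio, where chance gives about 1 in 20. Slit1 had 87.3 normalised counts in control replicate 1, against 26.7 to 35.1 in the other controls, and 84.2 in mutant replicate 2, against 30.1 to 35.7 in the other mutants. Slit2 had 1829 in mutant replicate 1, against 1566 to 1589. Robo3 had 47.2 in control replicate 3, against 7.9 to 13.7, and 7.7 in mutant replicate 3, against 24.3 to 26.5. Robo4 had 547.3 in control replicate 1, against 651.1 to 657.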

How the results depend on the processing

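The log2 differences of Slit2, Slit3, Robo2, Robo4, Srgap1 and Srgap2 were negative under all 19 alternatives run for each, and Slit3 passed under 1 of them, DESeq2. Slit1, Robo1 and Robo3 changed direction under 5, 3 and 2 alternatives. With library weights Slit1 was at -0.096 and Robo1 at 0.0040, and with the first title number as a block Robo3 was at -0.22 and Slit1 at 0.50. Control replicate 1 and mutant replicate 1 were each alone in their title number, so they gave the block fit no information on the genotype difference. The same fit put Slit3 at -0.556 and Robo2 at -0.477, neither called (limma adjusted p of 0.418 and 0.607). With 1 library left out Slit1 ran from -0.28 to 0.43, Robo1 from -0.0632 to 0.0583 and Robo3 from -0.10 to 0.71; the cause was not tested. The count of the 9 genes called was 0 in limma under every alternative, 0 in edgeR and 1 in DESeq2. The exact permutation test planned for a summed Slit or Robo level was not run. The count of all genes called was 4, 28 in DESeq2 and 0 to 11 with 1 library left out, with 0 without control replicate 2, control replicate 4 or mutant replicate 3. The title numbers have no stated meaning. Libraries of different genotype had correlations of their deviations from -0.053 to 0.21 with the same number and from -0.18 to 0.143 with different ones. Libraries of the same genotype were not compared, so this check does not settle whether the numbers matter, and they served only as a block. Control replicate 3 and mutant replicates 2 and 3 share a number. They had the lowest mean log2 levels of osteoblast and chondrocyte markers within their genotypes. Without the filter on low values, or at a mean of at least 50, Slit3 stayed at -0.44; Slit1 and Robo3 could not be fitted at the latter. Slit1 had 26 to 89 and Robo3 8 to 46 reads in a library; how much of their spread is counting error was not tested.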
